A study of Homo sapiens with 12 samples.

Results

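Transcripts of 10 genes of the NRF2 antioxidant pathway were examined in RNA-seq libraries of renal carcinoma cells with and without depletion of the clock transcription factor BMAL1. The genes were NFE2L2, KEAP1, NQO1, OSGIN1, HMOX1, SLC7A11, GCLC, GCLM, TXNRD1 and SRXN1, taken by name from a count table of 38021 gene names. All 10 had enough counts to be tested, among 16838 genes tested in all. The cells were 786-O, a clear cell renal cell carcinoma (ccRCC) line without functional VHL, and WT8, a derivative of 786-O that expresses wildtype VHL, the protein that targets HIF2α for degradation. Each line carried a lentiviral PLKO.1 vector for an shRNA against BMAL1 (shBMAL1) or for a scrambled control shRNA (shControl). Both kinds of cells were therefore infected and selected in puromycin, and all groups grew in DMEM with 10% fetal bovine serum. This gave 4 groups of 3 libraries, which the labels call biological replicates. Each group thus stands for a single line with a single kind of vector, WT8 differs from 786-O in its history as well as in VHL, and the sources used here do not say whether the infections were separate. P-values accordingly measure only the spread between these libraries.

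NRF2, the protein made from NFE2L2, is a transcription factor that is held at low levels by KEAP1, an adaptor that brings it to the CUL3 ubiquitin ligase. Oxidants and electrophiles modify KEAP1, NRF2 then accumulates, pairs with a small MAF protein and binds antioxidant response elements near genes for quinone reduction, heme breakdown, glutathione synthesis and thioredoxin reduction. Because NRF2 is regulated mainly through its protein, the transcripts described here do not measure its activity directly. BMAL1 is known to bind E-boxes with CLOCK.

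The labels were checked first. BMAL1, listed as ARNTL, was lower with shBMAL1 by 1.62 on the log2 scale in 786-O (SE 0.13) and by 2.48 in WT8 (SE 0.14), and the difference between these changes was called (log2 -0.86, edgeR adjusted p 3.69e-04). VHL had 18.8 CPM (counts scaled to a common library total) in 786-O shControl and 980.7 CPM in WT8 shControl. It was also lower in WT8 with shBMAL1, at 646.9 CPM. The renal epithelial markers PAX8 and PAX2 had at least 10745 and 351 counts in every library. EPCAM had 152 to 359 counts in the 786-O libraries and 0 to 5 in the WT8 libraries. Of 8 markers of blood, endothelium, liver and muscle, CD3E had 0 counts. DES was highest, with 64 to 108 counts in WT8 shControl and 0 to 5 in the other groups. The sum of these 8 was 2.85 to 4.32 CPM in WT8 shControl and 0.175 to 0.936 CPM in the other groups. The WT8 shControl libraries stood apart from the other 9 in cell cycle transcripts. Summed over 20 such genes these were at 989 to 1037 CPM in WT8 shControl and at 4484 to 4790 CPM elsewhere. Total counts were 33182005 to 36477484 per library, and mitochondrial genes took 3.38% to 5.64% of them.

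Promoters of 8 of the 10 genes were matched in RefSeq (GRCh38.p14), with 11 start sites, and HMOX1 and SLC7A11 were not matched. The core of the antioxidant response element was searched as TGACNNNGC on both strands of the window from 250 bases before to 50 bases after each start. It occurred in 4 of the 11 windows, which belong to GCLM, TXNRD1 and KEAP1, against 13.3% of all 35116 windows. Of the other motifs searched on both strands, the E-box CACGTG was in 0 of the 11 windows against 7.26% of all, and ACGTG, which is contained in CACGTG, was in 0 against 21.4%. ACGTG and GCGTG are the forms of the core of the hypoxia response element, and GCGTG was in 9 of the 11 windows against 36.5% of all. The 120 bases before the start are shown for the 4 windows with a match and for OSGIN1, the gene with the largest change below. Each stretch reads 5′ to 3′ on the strand of its gene. Capitals mark the match, which reads TGACNNNGC on the gene's strand where it begins with TGAC and is the reverse complement of it otherwise.
GCLM (chr1:93909431-93909550, minus strand): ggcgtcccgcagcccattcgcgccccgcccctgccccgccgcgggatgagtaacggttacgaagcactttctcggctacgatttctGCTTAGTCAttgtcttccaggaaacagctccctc
TXNRD1, upstream start (chr12:104215659-104215778, plus strand): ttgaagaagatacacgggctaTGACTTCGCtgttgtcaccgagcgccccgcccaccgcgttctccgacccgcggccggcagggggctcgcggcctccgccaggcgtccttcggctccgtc
TXNRD1, downstream start (chr12:104286912-104287031, plus strand): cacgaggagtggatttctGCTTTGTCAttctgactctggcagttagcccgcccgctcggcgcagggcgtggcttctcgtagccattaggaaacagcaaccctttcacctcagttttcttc
KEAP1 (chr19:10502772-10502891, minus strand): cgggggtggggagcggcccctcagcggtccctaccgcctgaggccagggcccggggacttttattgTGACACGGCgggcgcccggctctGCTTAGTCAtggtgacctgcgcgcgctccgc
OSGIN1 (chr16:83953120-83953239, plus strand): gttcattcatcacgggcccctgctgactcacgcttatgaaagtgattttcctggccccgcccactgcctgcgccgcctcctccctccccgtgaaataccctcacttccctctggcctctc
The matches began 34 bases before the start in GCLM, and 99 and 102 bases before the upstream and the downstream start of TXNRD1. In KEAP1 they began 54 and 31 bases before the downstream of its start sites, whose stretch is shown. The window of the upstream start of KEAP1 held no match. The upstream window of TXNRD1 held a further match across the start itself, first base 8 bases before it. GCLM and KEAP1 shared the 9 letters TGACTAAGC, read on the opposite strand in each. These are descriptions of letters in the windows. The windows behind the shares over all were not matched to these 11 in base composition, and binding of NRF2, BMAL1 or HIF2α there was not measured.

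Depletion of BMAL1 was accompanied by higher transcript levels of most of these genes in WT8 and by a mixed and mostly smaller response in 786-O. In WT8, 7 of the 10 genes rose and 0 fell at an adjusted p under 0.1 (edgeR quasi-likelihood test with Benjamini-Hochberg adjustment over all genes tested). Over all genes tested in WT8, 69.8% were called, 32.9% higher and 36.9% lower. In 786-O, 4 of the 10 rose and 1 fell, where 48.9% of all genes were called, 24.5% higher and 24.4% lower. The median log2 difference of the 10 genes was 0.52 in WT8 and 0.04 in 786-O, beside -0.04 and 0.00 over all genes tested. The sum of the 10 genes was 1055 to 1076 CPM in 786-O shControl, 1141 to 1145 CPM in 786-O shBMAL1, 1104 to 1137 CPM in WT8 shControl and 1544 to 1572 CPM in WT8 shBMAL1. TXNRD1 was the largest part of each sum, with means of 422, 492, 435 and 631 CPM in the same order. The sums therefore weigh this gene most and do not show a rise shared by the 10. The shControl and shBMAL1 libraries did not overlap for 7 of the 10 genes in WT8 (67.6% of all genes) and for 5 of the 10 in 786-O (50.9% of all genes). In these bulk libraries a change in the share of cells that express a gene and a change in RNA per cell cannot be told apart. When a fold change over 1.5 was required in the test, 3 of the 10 genes were called in WT8 (OSGIN1, SLC7A11 and GCLM), all higher with shBMAL1, where 25.6% of all genes were called, 10.0% higher and 15.6% lower. The same test called 1 of the 10 in 786-O (SLC7A11, lower), where 5.88% of all genes were called, 2.74% higher and 3.14% lower. All 20 cell cycle genes rose with shBMAL1 in WT8 (median log2 2.26), while 6 rose and 3 fell in 786-O (median log2 0.01), and the part of this shift in the WT8 values was not tested.

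**Figure D1:**
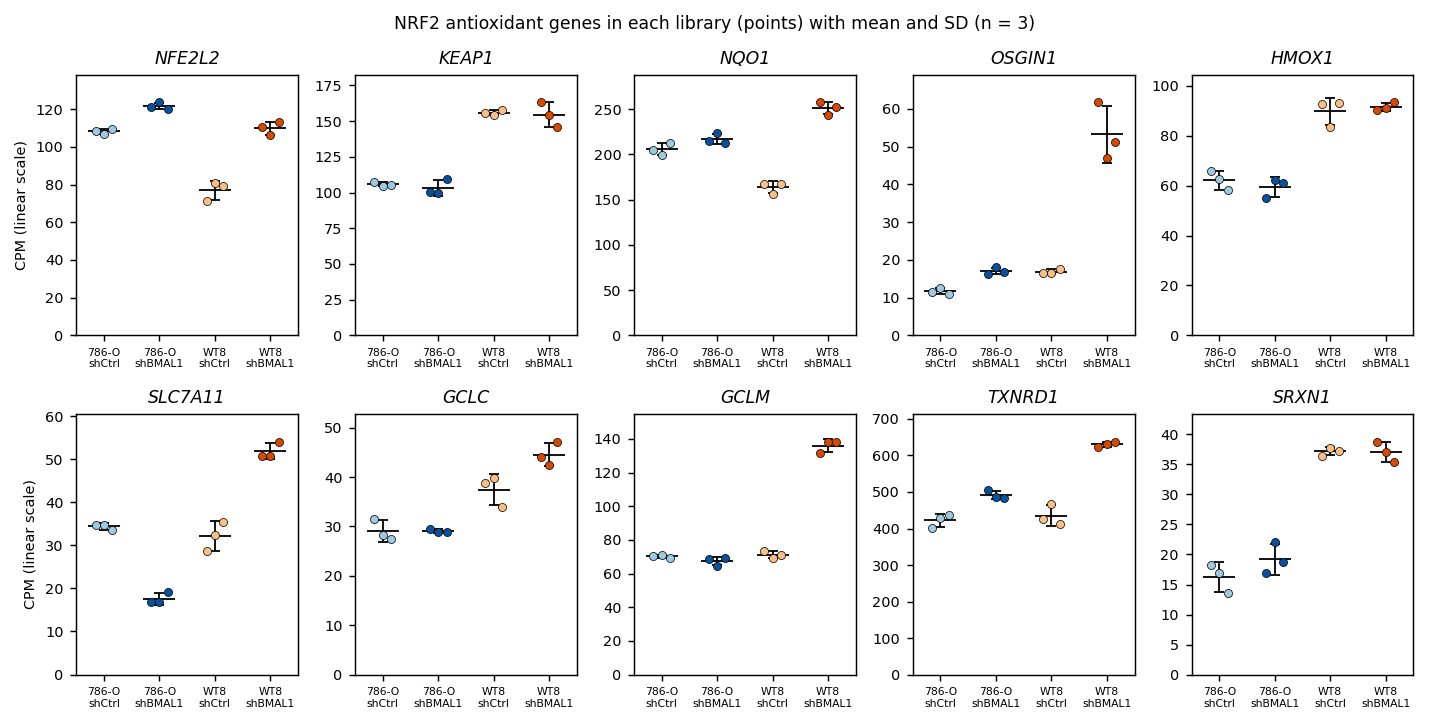
CPM on a linear scale from 0 for the 10 genes in each library (points), with the mean as a long bar and the SD as a whisker (n = 3), for 786-O and WT8 with shControl (shCtrl) or shBMAL1. In WT8 shBMAL1 the points of OSGIN1, SLC7A11, GCLM, TXNRD1 and NQO1 lie above those of every other group, SLC7A11 is lowest in 786-O shBMAL1, and KEAP1, HMOX1 and SRXN1 separate by line.

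**Figure D2:**
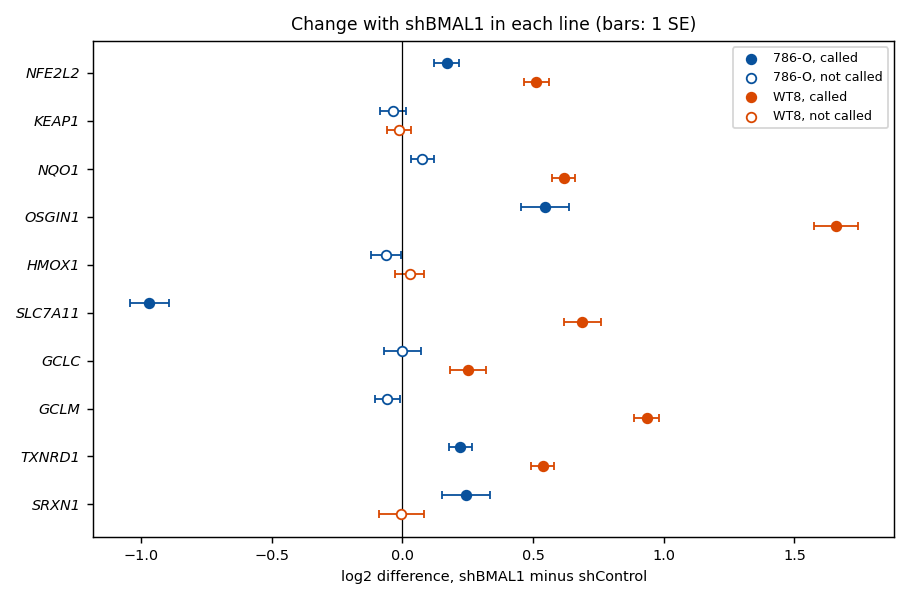
Log2 difference of shBMAL1 minus shControl in 786-O and in WT8 with 1 SE, filled where the edgeR adjusted p was under 0.1. OSGIN1 has the largest rise in both lines (0.55 and 1.66), and SLC7A11 lies on opposite sides of 0 (-0.97 and 0.69).

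Among the regulators, NFE2L2 rose with shBMAL1 in both lines and KEAP1 was not called in either. NFE2L2 (ENSG00000116044, GRCh37 chromosome 2, 178083395 to 178257484, minus strand) had 109, 107 and 109 CPM in the 786-O shControl libraries and 121, 124 and 120.4 CPM with shBMAL1. In WT8 it had 71.3, 80.7 and 79.3 CPM with shControl and 110.4, 106 and 113 CPM with shBMAL1. The shBMAL1 libraries thus lay above the shControl libraries in each line without overlap, and WT8 shControl was the lowest group. The log2 difference was 0.17 in 786-O (SE 0.05, edgeR adjusted p 0.00431) and 0.51 in WT8 (SE 0.05, edgeR adjusted p 1.98e-11). The change in WT8 exceeded that in 786-O by 0.34 (SE 0.07, edgeR adjusted p 7.14e-05). Exons of NFE2L2 in GENCODE share 3509 bases with HNRNPA3 on the opposite strand and 2037 bases with a long noncoding RNA on the same strand. These overlaps, and those given for other genes below, pool the exons of all annotated transcripts of a gene. The canonical transcript of NFE2L2 has 2446 bases, and its own overlap was not computed. Whether strand was used in counting is not given in the sources used here, so the level of NFE2L2 is uncertain by an amount not measured.

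KEAP1 (ENSG00000079999, chromosome 19, 10596801 to 10614234, minus strand) was at 105 to 107 CPM in 786-O shControl and 99.6 to 109.5 CPM in 786-O shBMAL1. In WT8 it was at 154 to 158 CPM with shControl and 146 to 163 CPM with shBMAL1. The shRNA groups overlapped in both lines, whereas every WT8 library lay above every 786-O library. The log2 difference with shBMAL1 was -0.04 in 786-O (SE 0.05, edgeR adjusted p 0.591) and -0.01 in WT8 (SE 0.05, edgeR adjusted p 0.834). No difference between these changes was called (log2 0.02, SE 0.07).

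NQO1 and OSGIN1 are widely used readouts of NRF2. NQO1 encodes a quinone reductase of the cytosol, and OSGIN1 encodes a growth-inhibitory protein induced by oxidative stress. NQO1 (ENSG00000181019, chromosome 16, 69740899 to 69760571, minus strand) had 205, 199.7 and 213 CPM in 786-O shControl and 215, 223 and 212 CPM in 786-O shBMAL1. The WT8 libraries had 168, 156 and 167 CPM with shControl and 258, 244 and 252 CPM with shBMAL1. The 786-O groups overlapped, while WT8 held both the lowest group, shControl, and the highest group, shBMAL1. The log2 difference was 0.08 in 786-O (SE 0.04, edgeR adjusted p 0.167) and 0.62 in WT8, a 1.53-fold rise (SE 0.04, edgeR adjusted p 9.32e-15). The difference between the lines was 0.54 (SE 0.06, edgeR adjusted p 3.02e-09). DESeq2 called the rise in 786-O with an adjusted p of 0.0942.

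OSGIN1 (ENSG00000140961, chromosome 16, 83964916 to 83999937, plus strand) had the largest change of the 10 genes. It had 11.5, 12.6 and 10.9 CPM in 786-O shControl and 16.3, 18.05 and 16.7 CPM in 786-O shBMAL1. In WT8 it had 16.5, 16.5 and 17.6 CPM with shControl and 61.7, 47.0 and 51.3 CPM with shBMAL1, which are 1758 to 2321 counts. All WT8 shBMAL1 libraries lay far above the rest, with the widest spread of any group for this gene (53.3 ± 7.55 CPM, SD, n = 3), and WT8 shControl overlapped 786-O shBMAL1. OSGIN1 rose 1.46-fold in 786-O (log2 0.55, SE 0.09, edgeR adjusted p 7.01e-06) and 3.16-fold in WT8 (log2 1.66, SE 0.08, edgeR adjusted p 6.14e-19). The rise in WT8 was larger by 1.11 on the log2 scale (SE 0.12, edgeR adjusted p 1.61e-09). Without any one of the 12 libraries the log2 difference in WT8 stayed between 1.55 and 1.75. OSGIN1 shares 457 exon bases with MLYCD on the same strand.

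HMOX1 (ENSG00000100292, chromosome 22, 35776354 to 35790207, plus strand) encodes heme oxygenase, which opens the heme ring and releases iron, carbon monoxide and biliverdin. It had 58.3 to 65.8 CPM in 786-O shControl and 54.9 to 62.4 CPM in 786-O shBMAL1. The WT8 levels were 83.7 to 93.2 CPM with shControl and 90.2 to 93.4 CPM with shBMAL1. As for KEAP1, the shRNA groups overlapped within each line and the lines did not overlap. The log2 difference with shBMAL1 was -0.06 in 786-O (SE 0.06, edgeR adjusted p 0.397) and 0.03 in WT8 (SE 0.06, edgeR adjusted p 0.684). HMOX1 therefore did not pass the test in the setting in which 7 of the 10 genes rose.

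Glutathione synthesis is represented by the cystine importer SLC7A11, also called xCT, and by the catalytic (GCLC) and modifier (GCLM) subunits of glutamate-cysteine ligase, the enzyme of the limiting step. SLC7A11 (ENSG00000151012, chromosome 4, 139085251 to 139163503, minus strand) changed in opposite directions in the lines. It had 34.8, 34.8 and 33.5 CPM in 786-O shControl and 16.8, 16.8 and 19.1 CPM in 786-O shBMAL1. In WT8 it had 28.6, 32.5 and 35.5 CPM with shControl and 50.7, 50.8 and 54.0 CPM with shBMAL1. The shControl groups of the lines overlapped, with every 786-O shBMAL1 library below them and every WT8 shBMAL1 library above them. SLC7A11 fell to 0.511 of its shControl level in 786-O (log2 -0.97, SE 0.08, edgeR adjusted p 5.67e-13). In WT8 it rose 1.61-fold (log2 0.69, SE 0.07, edgeR adjusted p 1.40e-10). The difference between the changes, 1.66, was the largest among the 10 genes (SE 0.10, edgeR adjusted p 5.69e-16), and without any one library it stayed between 1.58 and 1.74. SLC7A11 shares 865 exon bases with SLC7A11-AS1 on the opposite strand.

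GCLM (ENSG00000023909, chromosome 1, 94350755 to 94375012, minus strand) was nearly level in 3 groups and high in the fourth. It had 70.4, 71.0 and 69.5 CPM in 786-O shControl, 68.5, 64.7 and 69.4 CPM in 786-O shBMAL1 and 73.3, 69.2 and 71.0 CPM in WT8 shControl. In WT8 shBMAL1 it had 132, 138 and 138 CPM. The rise in WT8 was 1.91-fold (log2 0.93, SE 0.05, edgeR adjusted p 7.76e-19). In 786-O the shRNA groups did not overlap but the difference was small and was not called (log2 -0.06, SE 0.05, edgeR adjusted p 0.366). The changes in the lines differed by 0.99 (SE 0.07, edgeR adjusted p 7.93e-15).

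GCLC (ENSG00000001084, chromosome 6, 53362139 to 53481768, minus strand) had 27.4 to 31.6 CPM in 786-O shControl and 28.9 to 29.5 CPM in 786-O shBMAL1, with means of 29.1 CPM in both. Its WT8 libraries had 33.9 to 39.7 CPM with shControl and 42.4 to 47.1 CPM with shBMAL1. It rose in WT8 (log2 0.25, SE 0.07, edgeR adjusted p 0.0019), without overlap of the groups, and was not called in 786-O (edgeR adjusted p 1). Its rise in WT8 was thus smaller in size than that of its partner subunit GCLM. The difference between the lines, 0.25 (SE 0.10, edgeR adjusted p 0.0352), was lost without 786-O shControl replicate 1 (log2 0.19, edgeR adjusted p 0.121) and without WT8 shControl replicate 3 (log2 0.19, edgeR adjusted p 0.125). GCLC shares 529 exon bases with a long noncoding RNA on its strand and 305 with GCLC-AS1 on the other.

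Of the thioredoxin branch, TXNRD1 (ENSG00000198431, chromosome 12, 104609557 to 104744085, plus strand) encodes the cytosolic thioredoxin reductase. It had 402, 429 and 436 CPM in 786-O shControl and 505, 486 and 485 CPM in 786-O shBMAL1. In WT8 it had 427, 466 and 411 CPM with shControl and 623, 632 and 638 CPM with shBMAL1. The shControl groups of the lines overlapped, and both shBMAL1 groups lay above them, WT8 highest. TXNRD1 rose by 0.22 on the log2 scale in 786-O (SE 0.04, edgeR adjusted p 1.07e-04) and by 0.54 in WT8 (SE 0.04, edgeR adjusted p 5.85e-13), with a difference of 0.32 between the lines (SE 0.06, edgeR adjusted p 6.90e-05).

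SRXN1 (ENSG00000271303, chromosome 20, 627259 to 633844, minus strand) encodes sulfiredoxin, which repairs overoxidized peroxiredoxins. It had 18.3, 16.9 and 13.5 CPM in 786-O shControl and 16.97, 22.0 and 18.7 CPM in 786-O shBMAL1. In WT8 it had 36.5, 37.8 and 37.3 CPM with shControl and 38.8, 37.1 and 35.4 CPM with shBMAL1. The shRNA groups overlapped in both lines. The rise in 786-O passed the test (log2 0.24, SE 0.09, edgeR adjusted p 0.0349), but not without 786-O shControl replicate 3 (log2 0.12, edgeR adjusted p 0.318) or without 786-O shBMAL1 replicate 2 (log2 0.13, edgeR adjusted p 0.318). In WT8 the log2 difference was -0.00 (SE 0.08, edgeR adjusted p 0.979), and the difference between the lines was not called (log2 -0.25, SE 0.13, edgeR adjusted p 0.105). SRXN1 shares 2292 exon bases with another protein-coding gene on the same strand, and its counts are uncertain to that extent.

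The test of the difference between the lines' changes used all 12 libraries. The change was more positive in WT8 for 7 of the 10 genes and more negative for 0, where 56.0% of all genes tested were called, 27.4% more positive and 28.5% more negative. The 7 were NFE2L2, NQO1, OSGIN1, SLC7A11, GCLC, GCLM and TXNRD1. With a fold change over 1.5 required, 3 remained called, OSGIN1, SLC7A11 and GCLM, all more positive in WT8, where 18.6% of all genes were called, 8.27% more positive and 10.3% more negative. The median difference over the 10 genes was 0.33 on the log2 scale, beside -0.03 over all genes tested. The cell cycle list moved with it, since all 20 of its genes were also called more positive in WT8, with a median of 2.14.

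To ask how the genes differed between the lines, which differ in history as well as in VHL, WT8 was compared with 786-O under each shRNA. These comparisons use the same libraries as the shRNA comparisons above, so the values are given side by side. With shControl, 5 of the 10 genes were higher in WT8 and 2 were lower (79.5% of all genes were called, 39.3% higher and 40.2% lower), and the libraries of the lines did not overlap for 7 of the 10 (77.5% of all genes). With shBMAL1, 9 were higher and 1 was lower (73.0% of all genes, 36.0% higher and 37.0% lower), with no overlap for any of the 10 (71.0% of all genes). The median log2 difference of the 10 genes was 0.20 with shControl and 0.62 with shBMAL1, beside 0.00 over all genes in both. Requiring a fold change over 1.5 left 1 of the 10 genes with shControl (SRXN1), where 41.5% of all genes were called, 19.6% higher and 21.9% lower. It left 4 with shBMAL1 (OSGIN1, SLC7A11, GCLM and SRXN1), where 29.8% were called, 12.1% higher and 17.7% lower. With shControl all 20 cell cycle genes were lower in WT8 (median log2 -2.19), and with shBMAL1 8 were higher and 8 lower (median log2 0.02). Their part in the differences between the lines was not tested.

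SRXN1 differed most between the lines with shControl, at a 2.29-fold higher level in WT8 (log2 1.19, SE 0.09, edgeR adjusted p 1.60e-13). KEAP1 was 1.47-fold higher (log2 0.56, SE 0.05, edgeR adjusted p 7.12e-13) and HMOX1 1.45-fold higher (log2 0.53, SE 0.06, edgeR adjusted p 1.57e-10). OSGIN1 and GCLC were higher by 0.53 and 0.36 on the log2 scale. NFE2L2 and NQO1 were the 2 genes lower in WT8, by log2 -0.49 (SE 0.05, edgeR adjusted p 3.71e-11) and -0.33 (SE 0.04, edgeR adjusted p 2.81e-08). SLC7A11 (log2 -0.10, edgeR adjusted p 0.229), GCLM (0.02, edgeR adjusted p 0.747) and TXNRD1 (0.04, edgeR adjusted p 0.375) were not called. SLC7A11 was called lower when WT8 shControl replicate 3 was left out (log2 -0.17, edgeR adjusted p 0.0446).

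With shBMAL1, OSGIN1 was 3.13-fold higher in WT8 (log2 1.65, SE 0.08), SLC7A11 2.95-fold (log2 1.56, SE 0.07) and GCLM 2.01-fold (log2 1.01, SE 0.05). KEAP1 and HMOX1 were higher by 0.58 and 0.62 on the log2 scale, close to their values with shControl. NFE2L2 remained lower in WT8, by log2 -0.15 (SE 0.05, edgeR adjusted p 0.00708), while NQO1 was higher by 0.21 (SE 0.04, edgeR adjusted p 5.98e-05), the reverse of its difference with shControl. GCLC, TXNRD1 and SRXN1 were higher by 0.61, 0.36 and 0.95.

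**Figure D3:**
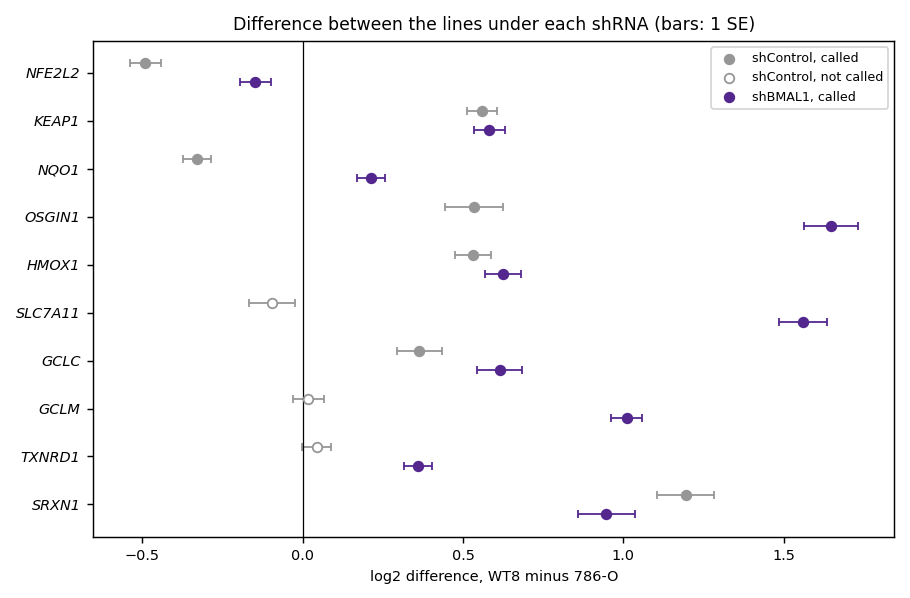
Log2 difference of WT8 minus 786-O with shControl and with shBMAL1 with 1 SE, filled where the edgeR adjusted p was under 0.1. KEAP1 and HMOX1 lie at similar values under both shRNAs (0.53 to 0.62), whereas SLC7A11, GCLM and OSGIN1 lie at 1.01 to 1.65 with shBMAL1 and at -0.10 to 0.53 with shControl.

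Across the 4 groups the 10 genes differed in how far they ranged. The highest group mean was 4.57 times the lowest for OSGIN1, 2.95 for SLC7A11, 2.29 for SRXN1 and 2.01 for GCLM, and 1.5 to 1.58 for the other 6. Per kilobase of the canonical transcript, TXNRD1 was the most abundant of the 10 in every group, at 109 CPM per kb in 786-O shControl and 163 in WT8 shBMAL1, and SLC7A11 was the least abundant, at 3.56 and 5.37. NQO1 followed TXNRD1 at 81.6 and 99.6 CPM per kb. The annotation gave SLC7A11 the longest transcript, 9645 bases in 12 exons, and HMOX1 the shortest, 1554 bases in 5 exons.

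The order of the groups also differed. For NFE2L2, WT8 shControl was lowest and 786-O shBMAL1 highest, and 786-O shControl and WT8 shBMAL1 overlapped between them. For NQO1, OSGIN1, SLC7A11, GCLC, GCLM and TXNRD1, WT8 shBMAL1 was highest and overlapped no other group. For KEAP1, HMOX1 and SRXN1 the groups formed a lower set of 786-O libraries and a higher set of WT8 libraries, with overlap within each set.

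Similarity of pattern was measured as the root mean square distance between the 4 group means of log2 CPM, each centred on its own mean, over 12948 genes with a mean of at least 50 counts. HMOX1 and KEAP1 were close to each other, at 0.02, and KEAP1 was among the 3 genes nearest to HMOX1 of all genes compared. OSGIN1 was nearest to TRIM16L (0.10), then ZNF583 (0.16) and CHORDC1 (0.18), against a distance of 0.82 from a flat pattern. TRIM16L is itself on the list of other NRF2 targets, which was written with earlier results of these data known. SLC7A11 was nearest to GAD1, OSBPL10 and LOC105376684 (0.13 to 0.15), GCLM to C10orf12, CREB5 and TLCD1 (0.04 to 0.05), and SRXN1 to PABPC4, ALKBH7 and LOC101929516 (0.01 to 0.04). For NFE2L2 these were TRNE, SMAD4 and TTC27, for KEAP1 STRAP, TRAPPC1 and TDP2, for NQO1 ZSCAN12, CDC23 and CCDC124, for GCLC INTS10, TAF6L and NUDT17, for TXNRD1 LRRC57, NAA20 and PARG, and for HMOX1 also CEP70 and FUNDC1, all within 0.03. Among the 10 genes themselves, the nearest to NFE2L2 and to TXNRD1 was NQO1 (0.14 for both), to GCLM TXNRD1 (0.23), to SLC7A11 GCLM (0.35) and to OSGIN1 GCLM (0.44). With 4 group means of 3 libraries each, these distances describe the pattern and carry no test.

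Other genes of the pathway, in 4 lists, were set beside the 10. Counts and medians cover all genes tested in a list, while the genes named as highest, lowest or at the ends were taken from called genes averaging 50 counts or more per library. The shares of all genes called with shBMAL1, against which the counts are to be read, were 32.9% higher and 36.9% lower in WT8 and 24.5% higher and 24.4% lower in 786-O. Of 30 other NRF2 targets, 29 were tested, and in WT8 10 rose and 16 fell with shBMAL1 (median log2 -0.20, beside -0.04 over all genes). The highest and lowest of these in WT8 at that count were TRIM16L (log2 1.76) and the hydrolase gene ABHD4 (0.66), and AKR1C3, an aldo-keto reductase (-2.08), and ABCC2, a conjugate exporter (-1.56). In 786-O, 12 rose and 7 fell (median log2 0.06), with AKR1B10 (1.65) and AKR1C3 (1.00) highest and IDH1, which makes NADPH (-1.13), and the heme transporter SLC48A1 (-1.002) lowest. AKR1C3 thus changed in opposite directions in the lines, as SLC7A11 did but with the signs exchanged (interaction log2 -3.08, edgeR adjusted p 1.11e-17). TRIM16L and the AKR1C genes have closely similar copies, between which reads could be split. AKR1C2 and AKR1C1, with means of 20.6 and 38.3 counts, fall below that limit and had lower values than AKR1C3 in WT8 (log2 -2.74 and -2.13). The change was more positive in WT8 for 8 of the 29 and more negative for 16 (median log2 -0.26, with 27.4% and 28.5% of all genes), with PIR (1.45), SLC48A1 (1.19), AKR1C3 and ABCC2 (-2.49) at the ends. PIR averaged 50.25 counts, just over the limit, and its difference had an SE of 0.38, against 0.13 for SLC48A1. The order of these 2 is therefore uncertain. Between the lines, where 39.3% of all genes were higher and 40.2% lower with shControl and 36.0% and 37.0% with shBMAL1, 15 were higher and 11 lower in WT8 with shControl (among them ABCC2 1.29, ABCC3 -1.31 and CBR3 -1.33) and 11 higher and 15 lower with shBMAL1 (TRIM16L 1.47, PIR 1.07, ABCC3 -3.11 and AKR1B10 -3.27).

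**Figure D4:**
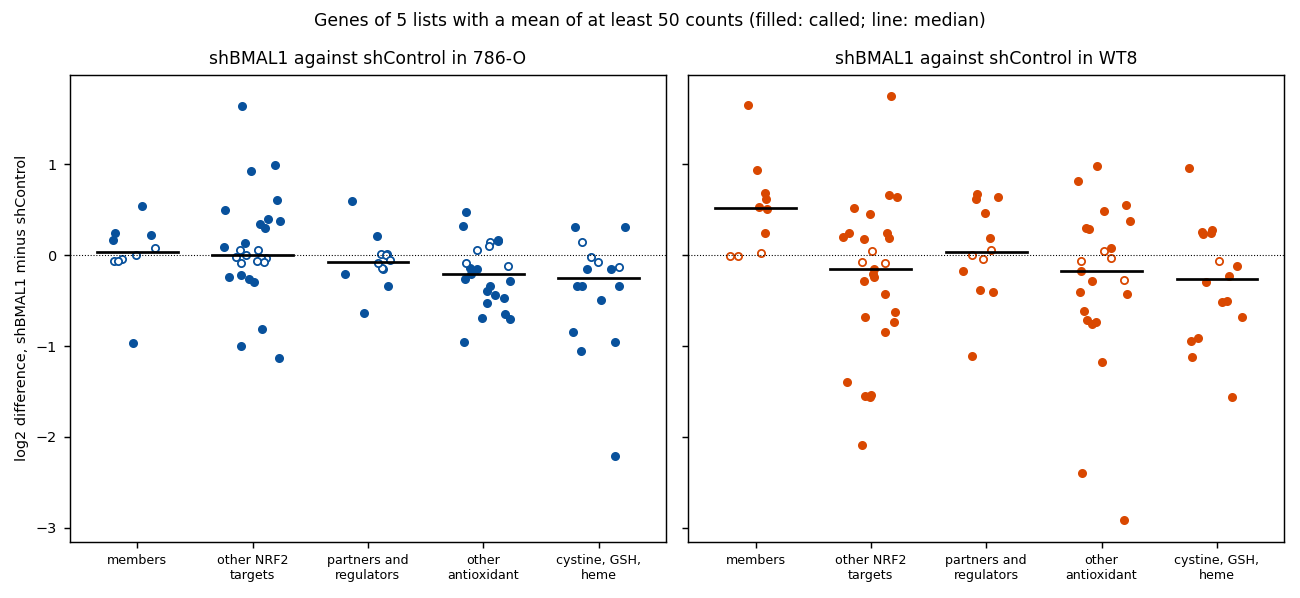
Log2 difference of shBMAL1 minus shControl in 786-O and in WT8 for the 10 genes (members) and for 4 wider lists, restricted to genes with a mean of at least 50 counts. Filled points had an edgeR adjusted p under 0.1 and the line is the median, which in WT8 is 0.52 for the 10 genes and between -0.26 and 0.03 for the other lists.

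Of 14 partners and regulators of NRF2, 13 were tested. In WT8, 5 rose and 5 fell (median log2 0.00, with 32.9% and 36.9% of all genes), with the small MAF gene MAFK (0.68) and the NRF2 relative NFE2L3 (0.64) highest and another small MAF gene, MAFF (-1.11), and SQSTM1, whose product binds KEAP1 (-0.40), lowest. In 786-O, 2 rose and 4 fell (median log2 -0.05, with 24.5% and 24.4% of all genes), with MAFK (0.59) and the ligase scaffold CUL3 (0.21) highest and DPP3, which binds KEAP1 (-0.63), and NFE2L3 (-0.34) lowest. The change was more positive in WT8 for 4 and more negative for 3, with 27.4% and 28.5% of all genes. NFE2L3 (0.98) and RBX1 (0.71) were at the upper end and MAFF (-0.97) and SQSTM1 (-0.41) at the lower. Between the lines, 5 were higher and 4 lower in WT8 with shControl, beside 39.3% and 40.2% of all genes (SQSTM1 0.98, GSK3B 0.50, NFE2L3 -0.89 and NFE2L1 -0.96). With shBMAL1, 6 were higher and 2 lower, beside 36.0% and 37.0% of all genes (SQSTM1 0.57, GSK3B 0.52, MAFF -0.76 and NFE2L1 -1.14).

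Of 24 other antioxidant enzymes and their regulators, 23 were tested. With shBMAL1, 8 rose and 11 fell in WT8 (median log2 -0.17, with 32.9% and 36.9% of all genes), with GLRX2 (0.99) and SOD1 (0.81) highest and the mitochondrial superoxide dismutase gene SOD2 (-2.40) and the thioredoxin inhibitor gene TXNIP (-2.92) lowest. In 786-O, 4 rose and 14 fell (median log2 -0.20, with 24.5% and 24.4% of all genes), with PRDX4 (0.48) and SOD3 (0.32) highest and TXNIP (-0.70) and MSRA (-0.95) lowest. The change was more positive in WT8 for 10 and more negative for 7, with 27.4% and 28.5% of all genes. GPX8 (1.08), GLRX2 (1.07), SOD2 (-1.71) and TXNIP (-2.22) were at the ends. Between the lines, 11 were higher and 10 lower in WT8 with shControl, beside 39.3% and 40.2% of all genes (SOD3 1.70, SOD2 1.01, GLRX2 -1.24 and GPX3 -2.21). With shBMAL1, 8 were higher and 10 lower, beside 36.0% and 37.0% of all genes (GPX1 0.72, CAT 0.66, TXNIP -1.22 and GPX3 -2.31).

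All 18 genes of cystine, glutathione and heme metabolism were tested, and 5 rose and 11 fell in WT8 (median log2 -0.26, with 32.9% and 36.9% of all genes), with CHAC2 (0.96) and the glutamine importer SLC1A5 (0.27) highest and GGT1 (-1.56) lowest. In 786-O, 3 rose and 10 fell (median log2 -0.20, with 24.5% and 24.4% of all genes), with GGT7 (0.32) and TFRC (0.31) highest and CHAC1, which degrades glutathione (-1.05), and CTH, which makes cysteine from cystathionine (-2.21), lowest. The 3 that rose include GGT5, a call at the floor, with 0 counts in 786-O shControl and 0 to 3 with shBMAL1. CTH (1.69), CHAC1 (0.98), GGT7 (-0.99) and GGT1 (-1.54) were at the ends of the differences between the lines' changes. Of these differences, 7 were called more positive and 5 more negative in WT8, with 27.4% and 28.5% of all genes. With shControl 9 were higher and 6 lower in WT8, beside 39.3% and 40.2% of all genes (CHAC1 1.85, GGT7 1.26, BLVRA -0.63 and GGT1 -1.90). With shBMAL1 10 were higher and 7 lower, beside 36.0% and 37.0% of all genes (among them CHAC1 2.83, CTH 1.67 and GGT1 -3.45). GGT1 has closely similar copies and its counts are uncertain.

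SLC3A2, the heavy chain with which SLC7A11 forms the cystine importer, was chosen after its values were seen. It had 500.1 to 538 CPM in 786-O shControl and 267 to 271 CPM in 786-O shBMAL1, and 536 to 558 CPM in WT8 shControl and 277 to 297 CPM in WT8 shBMAL1. It fell by 0.95 on the log2 scale in each line (SE 0.04 in both, edgeR adjusted p 9.55e-20 in 786-O and 1.04e-20 in WT8), and the difference between the lines' changes was 0.00 (SE 0.06, edgeR adjusted p 0.989). In WT8 the light chain SLC7A11 rose while the heavy chain fell, and in 786-O both fell.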

How the data were processed

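RNA was isolated from cultures of 786-O and WT8 cells with RNeasy kits and sequenced by BGI as stranded, paired-end mRNA libraries. The methods of the study name GRCh37, SeqMan NGen 17 and ArrayStar 17, whereas the submitters' processing notes name hg38, STAR and DESeq2, and which of them made the table is not settled here. Annotation, use of strand and treatment of multiply aligned reads are not given in the sources used here. The authors deposited estimated counts per gene on a linear scale, not scaled between libraries, in a table of 38074 lines for 38021 names. A value of 0.028 stood in for 0 (47.0% of values) and was set to 0, and 5.67% of the other values were not whole, so values were rounded. The tests had been chosen for plain counts, rounded if not whole. Counts of 2 (14754) were more frequent than counts of 1 (11117), so mates may have been counted separately. Lines of the same name were summed.

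Genes were filtered with filterByExpr of edgeR 4.0.16 in R 4.3.3, which kept 16838 of 26925 genes with a count. Libraries of 33182005 to 36477484 counts were scaled by TMM (factors 0.948 to 1.04), and robust quasi-likelihood models were fitted to all 12 libraries together, with the group as the term. At this depth the common biological coefficient of variation was 5.70% and the median SE of a log2 difference was 0.09. Replicates differed by more than counting error (chi-square per gene 4.51 to 12.6). The 5 comparisons were shBMAL1 against shControl in each line, WT8 against 786-O under each shRNA, and the difference between the lines' changes. Adjustment of p-values (Benjamini-Hochberg) covered every gene in the fit. A gene was called below an adjusted p of 0.1, the study's own false discovery rate. Means and SDs are of TMM-scaled CPM. The scripts were tested on simulated counts. Positions are from GENCODE version 44 on GRCh37.

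The 10 genes and the lists were chosen with earlier results of these data known, and the lists were written from memory. The genes named are the 10, ARNTL and VHL as checks, the 2 highest and 2 lowest genes called in each wider list and comparison with a mean of at least 50 counts, and the 3 genes nearest in pattern to each of the 10. Some genes that this rule names are not reported here and count only in the totals of their lists. Alternatives were DESeq2 1.42.0, its size factors in edgeR, no filter, a fold change over 1.5 (glmTreat), an adjusted p under 0.05, no mitochondrial genes, only the groups compared, a replicate block and leaving out each library.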

Additional observations from a re-analysis of the deposited data

Results flagged for a closer look

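The change with shBMAL1 differed between WT8 and 786-O for 7 of the 10 genes, by the edgeR test of that difference, beside 56.0% of all genes tested. On the log2 scale, as the change in WT8 minus that in 786-O, the difference was 1.66 for SLC7A11 (SE 0.10), the cystine importer, for which every shBMAL1 library lay below the shControl libraries in 786-O and above them in WT8. It was 1.11 for OSGIN1 (SE 0.12), which rose in both lines, and 0.99 for GCLM (SE 0.07), which rose in WT8 and was not called in 786-O. For NQO1 it was 0.54 (SE 0.06), for NFE2L2 0.34 (SE 0.07), for TXNRD1 0.32 (SE 0.06) and for GCLC 0.25 (SE 0.10). The value for GCLC is the one among these whose call depended on single libraries, since it was lost without 786-O shControl replicate 1 or WT8 shControl replicate 3. KEAP1, HMOX1 and SRXN1 did not pass this test. The WT8 shControl libraries that enter each difference also had the lowest summed cell cycle transcripts, 989 to 1037 CPM against 4484 to 4790 CPM in the other libraries, and the part of this in the differences was not tested. The depletion itself was not equal, since BMAL1 fell further in WT8 (difference between the changes log2 -0.86). VHL fell with shBMAL1 in WT8 (log2 -0.60) and was not called in 786-O. The part of these in the differences was not tested either.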

How the results depend on the processing

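The number of the 10 genes called in the 5 comparisons (5 in 786-O, 7 in WT8, 7 between the lines with shControl, 10 between them with shBMAL1 and 7 for the difference between changes) stayed within 1 of these values under DESeq2, its size factors in edgeR, no filter, an adjusted p under 0.05, no mitochondrial genes and only the groups compared. Only the groups compared could not be run for the difference between changes, which needs all 4. Requiring a fold change over 1.5 gave 1, 3, 1, 4 and 3 genes, and 990, 4313, 6993, 5023 and 3134 genes over all tested, in place of 8237, 11753, 13378, 12295 and 9427. Leaving out single libraries gave 4 to 5, 7 to 7, 7 to 8, 10 to 10 and 6 to 8 genes. Libraries of the same replicate number did not deviate together (r from -0.097 to 0.087 over 18 pairs). Pairs of different numbers had r from -0.134 to 0.098 (36 pairs). These correlations run over many genes at once, so a pairing that touches few genes would not show in them. With the replicate number as a block 5, 7, 7, 10 and 8 of the 10 genes and 8055, 11622, 13268, 12161 and 9246 genes in all were called, SRXN1 being the gene gained (log2 -0.25, edgeR adjusted p 0.0923), as it also was for the difference between changes with DESeq2's size factors (-0.26, 0.0813) and with no filter (-0.23, 0.0994), and without 786-O shControl replicate 1 (-0.33, 0.0311) or 786-O shBMAL1 replicate 1 (-0.32, 0.0316). Signs turned only for values near 0 that were not called. GCLC in 786-O became 0.0098 with DESeq2's size factors, 0.00097 with the block, 0.011 without mitochondrial genes, 0.00996 with DESeq2 and -0.045 to 0.058 without single libraries. SRXN1 in WT8 became 0.0088 with no filter, 0.026 without mitochondrial genes, 0.023 with only the groups compared and -0.0302 to 0.0354 without single libraries, and KEAP1 in WT8 0.017, 0.014 and -0.047 to 0.034 under the last 3 of these. Without single libraries, HMOX1 in WT8 ran from -0.021 to 0.055, the difference between changes of KEAP1 from -0.0068 to 0.075, and, between the lines with shControl, GCLM from -0.0018 to 0.037 and TXNRD1 from -0.0104 to 0.082. The cause of these turns was not tested. Depth limits SRXN1, OSGIN1 and SLC7A11 most, with as few as 476, 385 and 584 counts in a library.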

Other observations

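Iron storage transcripts, which NRF2 is also known to regulate, moved apart from the 10 genes in WT8, and were chosen after their values were seen. FTH1, the ferritin heavy chain gene, had 769 to 878 CPM in WT8 shControl and 412 to 503 CPM in WT8 shBMAL1, a fall of log2 -0.84 (SE 0.05, edgeR adjusted p 2.44e-14). In 786-O it had 608 to 630.1 CPM with shControl and 581 to 598 CPM with shBMAL1 and was not called (log2 -0.08, edgeR adjusted p 0.24). FTL, the light chain gene, fell in WT8 (log2 -0.28, edgeR adjusted p 5.06e-07) and rose slightly in 786-O (log2 0.09, edgeR adjusted p 0.0827). Both ferritin genes have many processed pseudogenes, and reads may be split among them. GSR and ATF4 were likewise chosen outside the rule for naming genes, with their values known. GSR, which reduces glutathione disulfide, rose in WT8 (log2 0.52, SE 0.05, edgeR adjusted p 1.78e-11) and was not called in 786-O (log2 -0.07, edgeR adjusted p 0.258). It is on the list of other NRF2 targets, of which 10 rose and 16 fell in WT8. ATF4, a transcription factor of the amino acid and unfolded protein responses, fell in both lines, by log2 -0.49 in 786-O (SE 0.04, edgeR adjusted p 8.70e-12) and by -0.30 in WT8 (SE 0.04, edgeR adjusted p 1.72e-07).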
